A study of Mus musculus with 12 samples.

Results

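The sarcomere and Z-disc genes described here are 31 genes of the contractile apparatus of heart muscle, out of 56647 genes with a value in every library. They were found by matching their symbols to the Ensembl identifiers of the deposited tables, and all 31 matched. Their transcripts were measured in myocardial tissue of 10 wild-type mice. Sham vehicle mice (n = 3) carry labels of sham surgery and of vehicle. MI mice (n = 3) underwent ligation of the left coronary artery, a model of myocardial infarction (MI). NECA-treated MI mice (n = 4) had NECA delivered locally into the infarcted myocardium. NECA, 5′-(N-ethylcarboxamido)adenosine, is an agonist of adenosine receptors that is broken down more slowly than adenosine. The labels give no age, no time after ligation and no vehicle for the MI mice, so NECA and its delivery cannot be told apart. The series was set up to find genes whose expression differs after NECA treatment of infarcted heart.

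The sarcomere is the repeating contractile unit of striated muscle. Myosin of the thick filament pulls on actin of the thin filament when calcium binds troponin, and titin spans from the Z-disc, where thin filaments of neighbouring sarcomeres are anchored, to the M-band, where thick filaments are crosslinked. Desmin filaments tie the Z-discs of neighbouring myofibrils together, and chaperones such as Unc45b and Cryab fold the motor proteins or protect the filaments. Infarction kills cardiomyocytes and replaces them with scar, and the surviving ventricle is known to re-express fetal sarcomere isoforms.

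The assay read the 3′ ends of polyadenylated transcripts. A library holds 0.96 to 1.33 M counts (M stands for 1e6) in the 10 libraries compared, 1 per mouse, and a count of 0 there allows up to 3.13 counts per 1e6 counts (CPM). That limit is 3 counts in the library with the fewest counts. Floors of this kind cover counting error only. MI mice 2 and 3 each have another, deeper library (labelled 1st) of 30.7 and 27.1 M counts, which is used here as a repeat. All 31 sarcomere genes passed the filter on low counts, and the smallest count of any of them in any of the 10 libraries was 94. Levels below are CPM scaled between libraries by the TMM method and called scaled CPM. Together the 31 genes took 9.80%, 9.79% and 8.31% of all counts in sham vehicle mice 1 to 3, 8.76%, 8.76% and 7.67% in MI mice 1 to 3, and 9.09%, 8.67%, 9.14% and 9.36% in NECA-treated mice 1 to 4. The group means were 9.30 ± 0.856% (SD, n = 3), 8.40 ± 0.630% (n = 3) and 9.07 ± 0.288% (n = 4), and the groups overlapped. In bulk tissue, fewer cardiomyocytes and less transcript per cardiomyocyte cannot be told apart.

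The deposited TPM (transcripts per 1e6) give a level per transcript length. In a 3′ assay reads do not grow with length, so TPM lower the rank of long transcripts, and the order of levels below is that of the TPM scale. Myh6, the fast α-myosin heavy chain of the adult mouse ventricle, and Myl2, the ventricular regulatory light chain, led with mean TPM of 11381 ± 691 and 11376 ± 1519 (SD, n = 10 mice), a difference well within their spread. Such levels of ventricular genes in all 10 mice match the label of myocardial tissue. Myoglobin (Mb), the oxygen store of red muscle, followed with 8619 ± 764 TPM. The thin filament genes Tnnt2, Tpm1 and Actc1 came next with 6093 ± 319, 5711 ± 254 and 5191 ± 976 TPM. The lowest TPM included filamin C (Flnc) with 36.2 ± 7.96 and the Z-disc protein gene Synpo2l with 29.4 ± 4.94. Titin (Ttn) stood among the lowest in TPM, with 38.5 ± 4.19, which divides its counts by a transcript of up to 106824 bases. In counts scaled between libraries it lay between 1896 and 3469 scaled CPM, the highest mean of the titin and M-band genes.

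Promoters of the genes were searched for the binding motifs of muscle transcription factors, because the genes share a tissue and may share letters at their starts. RefSeq promoters (build GRCm38.p6, 250 bases before to 50 after each start) matched 28 of the 31 genes. The CArG box, bound by serum response factor, stood in promoters of 6 of the 28 genes (Actc1, Fhl2, Ldb3, Myl3, Myom1 and Nebl), which is 21.4% against 1.81% of all 27025 genes in the table. The letters CTANNNNTAG, the outline of the MEF2 motif, stood on either strand in 7 of 28 (Des, Flnc, Ldb3, Mybpc3, Myoz2, Synpo2l and Ttn), 25.0% against 4.23%. The MEF2 motif proper, with A or T alone in its 4 middle bases, stood in 4 of them (Mybpc3, Myoz2, Synpo2l and Ttn), 14.3% against 0.636%. The other motifs searched gave 21.4% against 15.7% for TATAAA, 32.1% against 16.6% for CATTCC, 28.6% against 12.7% for AGATAA and 28.6% against 18.3% for CAGCTG. These matches are descriptions of letters and not of bound sites. The 30-base windows below show how close the matches are to each other. They hold in capitals the CArG box of Actc1 and Fhl2, whose values follow for every mouse, and the MEF2 motif of Ttn, Mybpc3 and Synpo2l, and are written 5′ to 3′ on the strand of the gene. The window of Actc1 lies at chr2:114052903-114052932 (minus strand), that of Fhl2 at chr1:43163973-43164002 (minus), Ttn at chr2:76982694-76982723 (minus), Mybpc3 at chr2:91118044-91118073 (plus) and Synpo2l at chr14:20668444-20668473 (minus).
Actc1 CArG box: gctaaggcgaCCAAATAAGGcaaggtggca
Fhl2 CArG box: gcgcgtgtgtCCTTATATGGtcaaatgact
Ttn MEF2: ttctgaaaggCTAAATTTAGcactgccaat
Mybpc3 MEF2: tggaatttgtCTATATTTAGcaggtggcta
Synpo2l MEF2: gaaatttgtaCTATAATTAGttctaggagt

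Before groups are compared, 2 mice that stood apart need describing. Sham vehicle mouse 3 was the lowest of 10 mice in 13 sarcomere genes, and MI mouse 3 in 17, which leaves 1 gene lowest elsewhere. The median over the 31 genes of the log2 deviation from the sham vehicle mean was -0.31 in sham vehicle mouse 3 and -0.42 in MI mouse 3, and it lay between -0.21 and 0.16 in the other 8. Sham vehicle mouse 3 had the highest level of all 7 atrial markers, with a summed 7749 CPM against 120 and 179 CPM in the other sham vehicle mice, 219 to 3888 CPM in MI and 73.5 to 302 CPM in NECA-treated mice. The 3888 CPM of MI mouse 3 were nearly all Nppa, and the atrial light chains Myl4 and Myl7 were at 0 in that library. Sham vehicle mouse 3 also led in all 6 adipocyte markers (773 CPM, against 0.00 to 2.26 CPM in the other sham vehicle mice, 0.00 to 221 CPM in MI and 0.00 to 270 CPM in NECA-treated mice). MI mouse 3 led in all 10 fibroblast and collagen markers, with 14687 CPM against 838 to 2356 CPM in sham vehicle, 1724 to 2724 CPM in the other MI and 1994 to 6292 CPM in NECA-treated mice. It also led in all 10 macrophage markers (1136 CPM against 198 to 448, 332 to 530 and 473 to 776 CPM in the same groups). In the 5 erythroid markers sham vehicle mouse 3 was also highest (3679 CPM, against 1107 and 1656 CPM in the other sham vehicle mice, 731 to 2589 CPM in MI and 829.6 to 922 CPM in NECA-treated mice). MI mouse 3 was highest in 6 of 7 smooth muscle and pericyte markers (1119 CPM, against 511 to 584, 651 to 687 and 642 to 866 CPM in sham vehicle, other MI and NECA-treated mice). Mitochondrially encoded genes took 19.9% of counts in sham vehicle mouse 3 and 17.9% in MI mouse 3, the lowest shares, against 21.6% to 24.7% in the other 8 mice. The part of these cells and of the mitochondrial share in the sarcomere values was not tested.

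**Figure D1:**
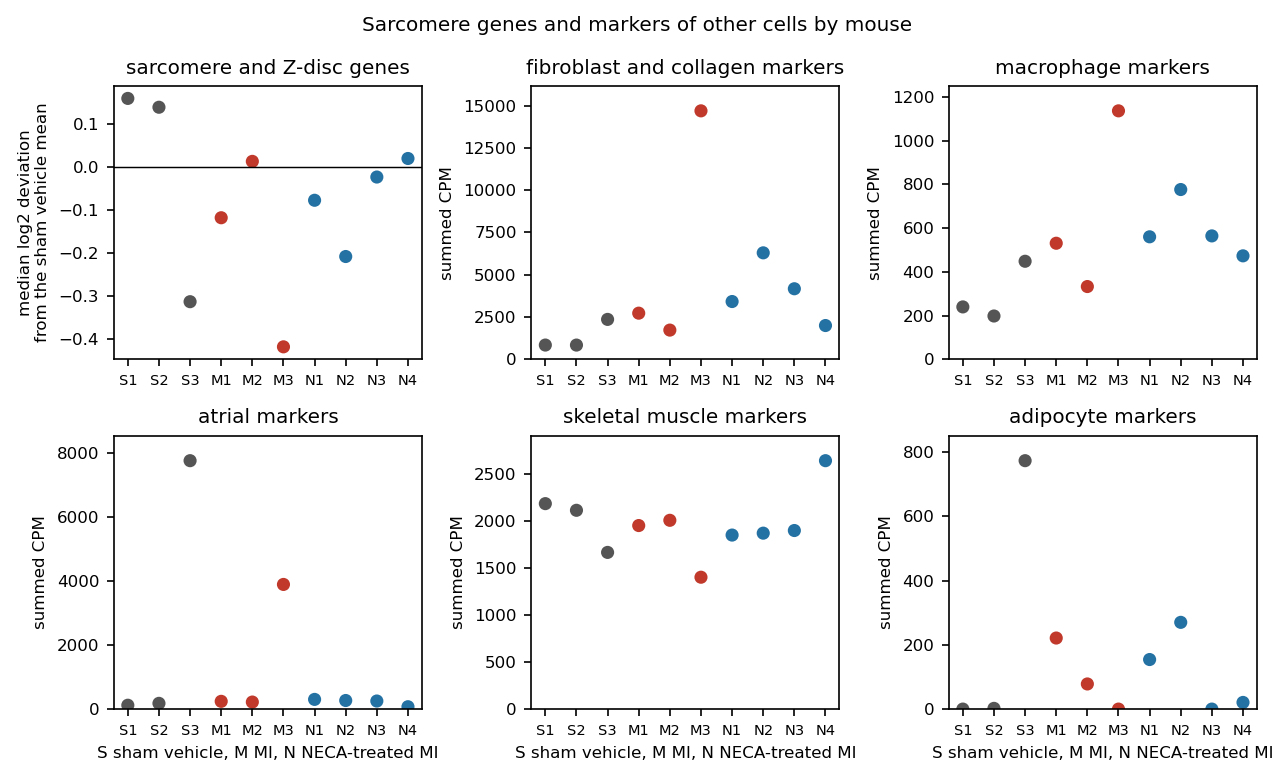
Median log2 deviation of the 31 genes from the sham vehicle mean (first panel) and summed CPM of 5 marker lists in each mouse (S sham vehicle, M MI, N NECA-treated MI). Sham vehicle mouse 3 and MI mouse 3 have the lowest medians, -0.31 and -0.42, the first with 7749 CPM of atrial markers and the second with 14687 CPM of fibroblast and collagen markers.

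Ligation was compared with sham vehicle first. No sarcomere gene differed past the threshold, and the 3 genes of smallest p were Flnc at 0.64 times, the assembly chaperone gene Unc45b at 0.68 times and the M-band gene Myom2 at 1.51 times the sham vehicle level. Of the 31 genes, 24 had a lower and 7 a higher fitted level in MI mice, with a median log2 fold change of -0.20 against -0.01 over all 9505 genes tested. None of the 31 passed an adjusted p of 0.05 (edgeR quasi-likelihood test, Benjamini-Hochberg over all genes, smallest adjusted p = 0.234), and 0.0736% of all genes did. At an unadjusted p under 0.05, 1 was higher and 7 lower, together 8 of 31 beside 12.0% of all genes. DESeq2 called 1 of the 31 (Myom2) and limma on log2(TPM + 1) called 0. The 3 MI mice lay wholly above the 3 sham vehicle mice in 1 gene (Myom2, beside 7.14% of all genes) and wholly below in 5 (Myh6, Flnc, Unc45b, Pdlim5 and Cmya5, beside 7.12%). For 14 of the 31 genes the 95% confidence interval lay within 1.5-fold either way, and for 29 within 2-fold. The split of signs moved with the scaling. Library totals without TMM gave 13 higher and 18 lower, and log2(TPM + 1) gave 16 higher and 15 lower. The median over all genes moved as well. Without TMM it was 0.0717, against -0.123 for the 31 genes. On log2(TPM + 1) it was 0.0977, against 0.0139 for the 31 genes, so their median stayed below that of all genes in both. Single mice moved the split too. Without sham vehicle mouse 1 there were 14 higher and 17 lower (median -0.0437), and without MI mouse 3 there were 12 and 19 (median -0.0285). Without sham vehicle mouse 3 there were 2 higher and 29 lower (median -0.28). The median over all genes lay between -0.00827 and 0.0071 in these fits.

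**Figure D2:**
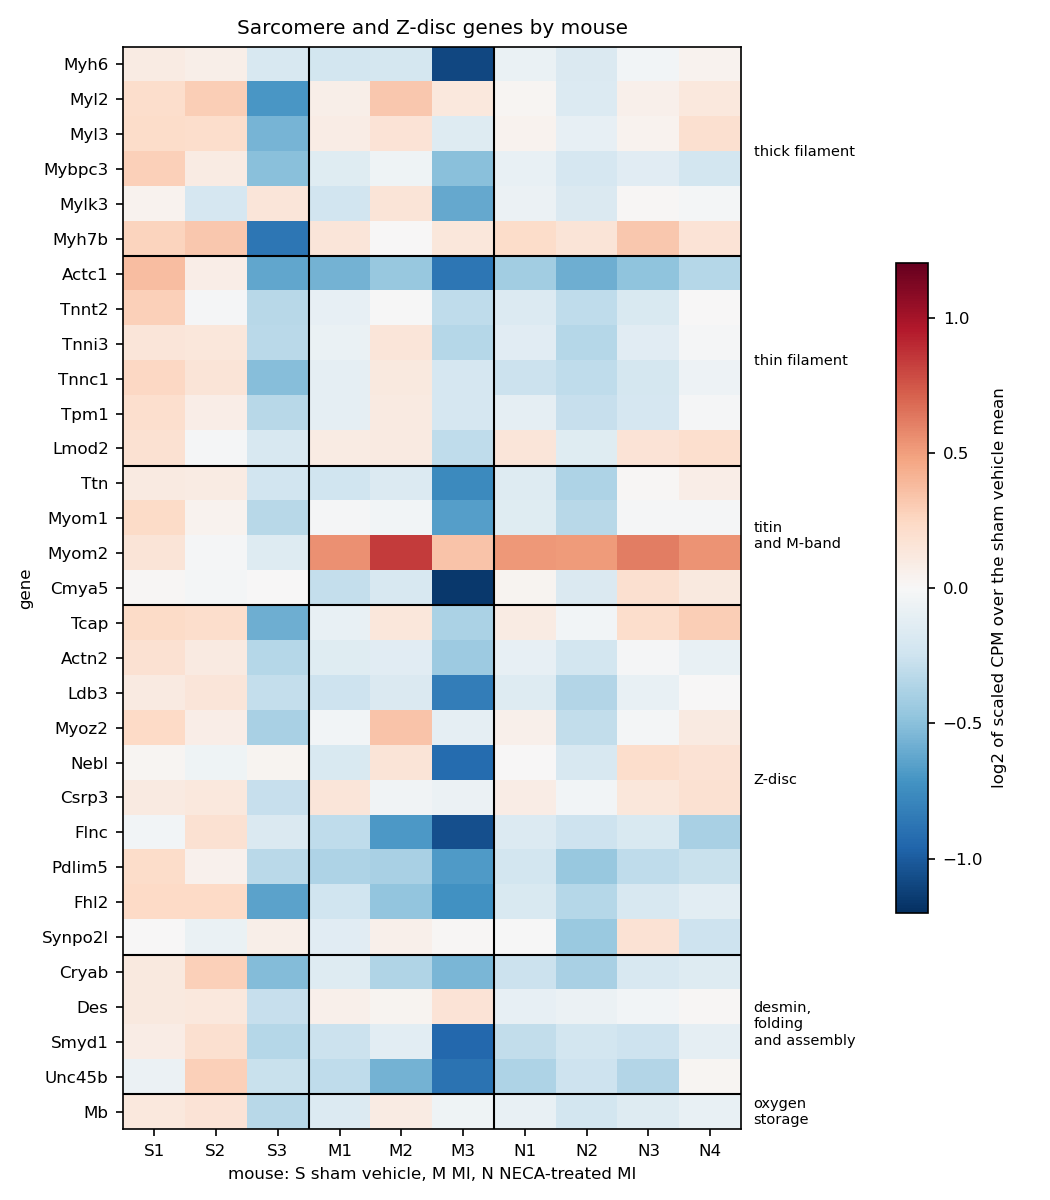
Heat map of the 31 genes (rows, grouped by role) in the 10 mice (columns, S sham vehicle, M MI, N NECA-treated MI). Colour gives the log2 ratio of scaled CPM to the sham vehicle mean. Myom2 is above the sham vehicle mean in each MI and NECA-treated mouse, Actc1 is below it in each of them, and sham vehicle mouse 3 and MI mouse 3 are blue in most rows.

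Among thick filament genes, Myh6 was measured at 32025, 31444 and 26229 scaled CPM in sham vehicle mice 1 to 3, 25645, 25877 and 13983 in MI mice 1 to 3 and 28230.0, 26444, 29306 and 30691 in NECA-treated mice 1 to 4. MI mouse 3 was far below the other 9 mice, which lay close together. The log2 fold change in MI was -0.45 ± 0.21 (SE, adjusted p = 0.408), and it was -0.02 on the deposited log2(TPM + 1) values. Counting can divide reads between Myh6 and its near-identical neighbour Myh7, the slow β-myosin heavy chain, so the level of each is uncertain. The other 5 thick filament genes had log2 fold changes between -0.22 and 0.18. They were Myl2 and Myl3 (light chains), Mybpc3 (myosin-binding protein C), Mylk3 (the cardiac light chain kinase) and Myh7b (a further myosin heavy chain).

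Among thin filament genes, cardiac α-actin (Actc1) was measured at 12582, 10288 and 6295 scaled CPM in sham vehicle mice 1 to 3, 6583, 7086 and 5339 in MI mice and 7275, 6466, 6939.5 and 7669 in NECA-treated mice. Sham vehicle mice 1 and 2 were above all other mice, and sham vehicle mouse 3 lay within the range of the MI mice. The log2 fold change was -0.62 ± 0.22 (SE, adjusted p = 0.276). Without sham vehicle mouse 3 it was -0.86 and passed (edgeR adjusted p = 0.0214), in a fit in which 0.51% of 9797 genes passed and Actc1 was the sole sarcomere gene among them. The log2 fold change shrank to -0.38 without sham vehicle mouse 1 and to -0.51 without MI mouse 3 (edgeR adjusted p = 0.7 in the latter). Actc1 passed in neither fit. Reads may also be shared with the skeletal actin gene Acta1, which held 2.36% to 6.49% of the counts of both genes. The troponin genes Tnnt2, Tnni3 and Tnnc1, tropomyosin (Tpm1) and the actin filament nucleator Lmod2 had log2 fold changes from -0.13 to -0.02.

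The titin and M-band genes went both ways. Myom2, which encodes myomesin 2, a crosslinker of thick filaments in the M-band, was measured at 948, 848 and 767 scaled CPM in sham vehicle mice, 1253, 1526 and 1082 in MI mice and 1223, 1218, 1305 and 1242 in NECA-treated mice. Every MI and every NECA-treated mouse was above every sham vehicle mouse. In MI the log2 fold change was 0.59 ± 0.18 (SE, adjusted p = 0.247). It was positive in all 21 alternative fits, from 0.44 to 0.70, although fits without single NECA-treated mice keep all the mice compared here. Myom2 passed in 3 of the 21, with library totals without TMM (0.67, adjusted p = 0.022), with DESeq2 (0.59, adjusted p = 0.0431) and without sham vehicle mouse 3 and MI mouse 3 (0.62, edgeR adjusted p = 0.00203). The last of these fits was added after the values were seen. Myom1 (myomesin 1), a relative of Myom2, in contrast had -0.20 ± 0.20.

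Titin itself was measured at 3469, 3444 and 2741 scaled CPM in sham vehicle mice, 2721, 2870.5 and 1896 in MI mice and 2889.5, 2488, 3258 and 3402 in NECA-treated mice. MI mouse 3 was the lowest, and MI mice 1 and 2 lay near sham vehicle mouse 3 (log2 fold change -0.37 ± 0.20, SE, adjusted p = 0.46). Cmya5 (myospryn), which anchors signalling proteins near the Z-disc and is listed here with titin, was measured at 577, 561 and 571 in sham vehicle mice, 466, 499 and 255 in MI mice and 582, 505, 649 and 618 in NECA-treated mice. MI mice lay below the sham vehicle mice, MI mouse 3 by the most, and the log2 fold change was -0.49 ± 0.21 (SE, adjusted p = 0.366), or -0.24 without MI mouse 3.

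Z-disc genes had log2 fold changes from -0.65 to 0.08 in MI, 8 of 10 of them negative. Flnc (filamin C, an actin crosslinker of the Z-disc) was measured at 414, 479 and 376 scaled CPM in sham vehicle mice, 342, 263 and 204 in MI mice and 376, 355, 372 and 323 in NECA-treated mice. All 3 MI mice lay below all sham vehicle mice, and the log2 fold change of -0.65 ± 0.18 (SE, adjusted p = 0.234) was negative in all 21 alternative fits, from -0.90 to -0.48. Fits without single NECA-treated mice are among the 21 and keep all the mice compared. Pdlim5, a PDZ and LIM domain adaptor that binds α-actinin, was measured at 597, 531 and 412, 398, 391 and 319.5 and 439.6, 375, 416 and 426 in the same order of groups, and MI mouse 1 came close to sham vehicle mouse 3 (log2 fold change -0.47 ± 0.17, SE, adjusted p = 0.305). Its interval of -0.83 to -0.11 leaves both a small and a large difference possible.

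Fhl2, a LIM protein that binds titin and signalling enzymes, was measured at 1713, 1709.9 and 932 scaled CPM in sham vehicle mice, 1230.3, 1049 and 876 in MI mice and 1279, 1145, 1273 and 1334 in NECA-treated mice. Sham vehicle mice 1 and 2 lay above all others and sham vehicle mouse 3 inside the range of the MI mice (log2 fold change -0.46 ± 0.21, SE, adjusted p = 0.399). The main Z-disc crosslinker α-actinin 2 (Actn2) was measured at 1741, 1653 and 1212 scaled CPM in sham vehicle mice, 1386, 1396 and 1135 in MI mice and 1438, 1315, 1525 and 1444 in NECA-treated mice. These groups overlapped, and the log2 fold change was -0.23 ± 0.18 (SE, adjusted p = 0.628). Telethonin (Tcap), the cap of titin at the Z-disc, was measured at 1741, 1717 and 989 scaled CPM in sham vehicle mice, 1391, 1625 and 1139.9 in MI mice and 1583, 1448, 1713 and 1824 in NECA-treated mice. Sham vehicle mouse 3 was the lowest of all mice, the groups overlapped, and the log2 fold change was -0.10 ± 0.21 (SE, adjusted p = 0.899). The remaining Z-disc genes Ldb3, Myoz2, Nebl, Csrp3 and Synpo2l had values from -0.39 (Ldb3) to 0.08 (Myoz2).

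Of the genes for desmin filaments, folding and assembly, Unc45b, the chaperone that folds the myosin head, was measured at 206, 265 and 180.0 scaled CPM in sham vehicle mice, 176, 146 and 117 in MI mice and 167, 183, 169.9 and 221 in NECA-treated mice. MI mice lay below sham vehicle mice, although MI mouse 1 and sham vehicle mouse 3 nearly met, and the log2 fold change was -0.56 ± 0.19 (SE, adjusted p = 0.247). Desmin (Des) was measured at 1665, 1674 and 1272, 1606, 1575 and 1719 and 1432, 1466, 1498 and 1548 in the same order, with a log2 fold change of 0.09 ± 0.17 (SE, adjusted p = 0.882). MI mouse 3, the lowest of all 10 mice in 17 of the 31 genes, was the highest of them in Des. Smyd1, a methyltransferase needed for sarcomere assembly, and Cryab, a small heat shock protein that guards desmin and titin, had -0.40 ± 0.20 and -0.35 ± 0.20 (SE, adjusted p = 0.429 and 0.486). Myoglobin was measured at 9949.5, 10217 and 7259 scaled CPM in sham vehicle mice, 8141, 9781 and 8803 in MI mice and 8619.8, 7824, 8201 and 8609.6 in NECA-treated mice, with overlapping groups and a log2 fold change of -0.04 ± 0.18 (SE, adjusted p = 0.961).

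**Figure D3:**
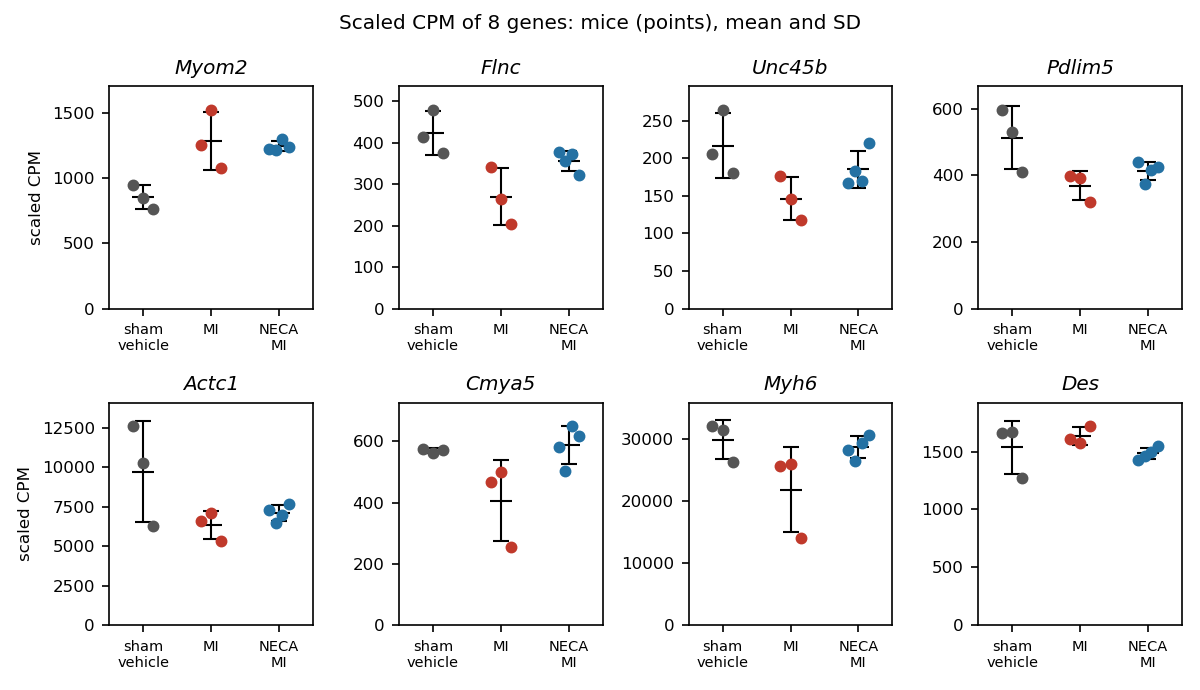
Scaled CPM of 8 genes in sham vehicle (grey), MI (red) and NECA-treated MI (blue) mice. Points are mice and bars are the mean and SD of each group (n = 3, 3 and 4), on axes that start at 0. Myom2 separates sham vehicle from both other groups, and the wide bars of MI in Myh6 and Cmya5 come with 1 low mouse, MI mouse 3.

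NECA-treated MI mice were then compared with MI mice, the comparison that bears on NECA. It shares the MI mice with the comparison before it, so a low level in MI mice lowers the first fold change and raises this one. No sarcomere gene differed past the threshold. Cmya5, Flnc and Myh6 had the smallest p, with fitted levels 1.45, 1.32 and 1.31 times those of MI mice. Over the 31 genes, 21 had a higher and 10 a lower fitted level with NECA, with a median log2 fold change of 0.11 against -0.01 over all 9505 genes. None passed an adjusted p of 0.05 (edgeR, smallest adjusted p = 0.793), which 0.0% of all genes did, and 2 (Cmya5 and Flnc) had an unadjusted p under 0.05 beside 6.07% of all genes. DESeq2 and limma on log2(TPM + 1) also called 0 of the 31. The NECA-treated mice lay wholly above the MI mice in 3 genes (Myh6, Cmya5 and Myh7b, beside 3.88% of all genes) and wholly below in 1 (Des, beside 3.61%). For Myh7b the groups all but touched, at 140.243 scaled CPM in NECA-treated mouse 2 and 140.174 in MI mouse 1. Its CPM without TMM scaling overlapped, with 135.6 in NECA-treated mouse 4 and 139.5 in MI mouse 1. Those of Des overlapped too, with 1522 in NECA-treated mouse 2 and 1454 in MI mouse 2. The 95% confidence interval lay within 1.5-fold for 22 genes and within 2-fold for all 31 in this fit.

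By role, values were positive in 5 of 6 thick filament genes (median 0.09), 3 of 4 titin and M-band genes (median 0.18), 8 of 10 Z-disc genes (median 0.20) and 3 of 4 genes of desmin, folding and assembly (median 0.14). Thin filament genes were positive in 2 of 6, with a median of -0.05. Cmya5 had a log2 fold change of 0.53 ± 0.19 (SE, adjusted p = 0.793), Flnc 0.40 ± 0.17 (adjusted p = 0.793) and Myh6 0.39 ± 0.20 (adjusted p = 0.83). Of the values above, the Cmya5 levels of NECA-treated mice were at or near those of sham vehicle mice, and the lowest of them was close to the highest MI mouse. Actc1 had 0.16 ± 0.20 and Myom2 -0.04 ± 0.16 (adjusted p = 0.923 and 0.975), differences smaller than their errors. The intervals, -0.26 to 0.58 for Actc1 and -0.38 to 0.29 for Myom2, hold differences in either direction. Without MI mouse 3 the median over the 31 genes was -0.01, with 15 higher and 16 lower, and no gene had an unadjusted p under 0.05. Cmya5, Flnc and Myh6 then had 0.29, 0.24 and 0.15, all still positive.

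NECA-treated MI mice were last compared with sham vehicle mice, a comparison that shares its samples with both of the others. Myom2 was at 1.46 times and Actc1 at 0.73 times the sham vehicle level, and neither passed the threshold. The fitted level was higher for 9 genes and lower for 22, with a median log2 fold change of -0.11 against -0.01 over all genes. None of the 31 passed (edgeR, smallest adjusted p = 0.681), beside 0.0105% of all genes, and 2 had an unadjusted p under 0.05 beside 6.03%. DESeq2 and limma called 0. The groups separated in 1 gene upward (Myom2, beside 4.27% of all genes) and in 0 downward (beside 4.29%). Myom2 had 0.55 ± 0.17, Actc1 -0.46 ± 0.20 and Pdlim5 -0.31 ± 0.16 (SE, adjusted p = 0.681, 0.821 and 0.837). All 4 genes of desmin, folding and assembly had negative values, from -0.24 to -0.05. Myom2 was positive in all 21 alternative fits, from 0.47 to 0.63, although fits that change MI libraries alone keep all the mice compared here. It passed with library totals without TMM (0.61, adjusted p = 0.031) and without sham vehicle mouse 3 and MI mouse 3 (0.47, edgeR adjusted p = 0.00776). The latter fit was added after the values were seen.

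**Figure D4:**
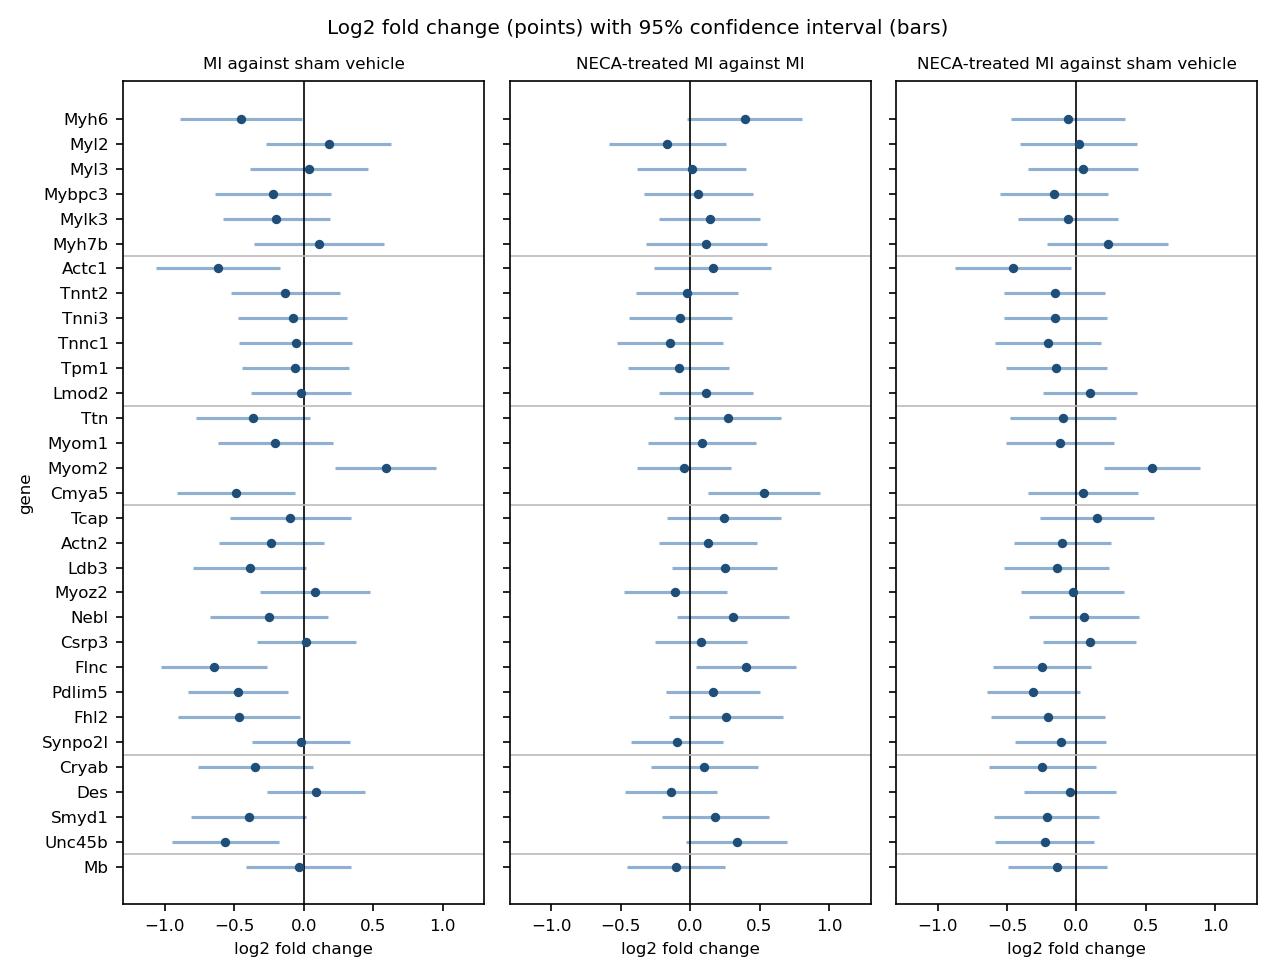
Log2 fold change (points) and 95% confidence interval (bars) of the 31 genes, grouped by role, in the 3 comparisons (edgeR). Most intervals include 0, Myom2 is to the right of 0 in both comparisons with sham vehicle mice, and Cmya5 and Flnc change side between the first and the second panel. The same MI mice enter the first panel and, with opposite sign, the second.

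With sham vehicle mouse 3 and MI mouse 3 both left out, a fit added after the values were seen, more genes passed. In MI against sham vehicle 6 of the 31 passed, beside 0.722% of all 9560 genes, and they were Myom2 upward and Actc1, Fhl2, Flnc, Pdlim5 and Cryab downward, with log2 fold changes of 0.62, -0.75, -0.59, -0.57, -0.52 and -0.47. In NECA-treated MI against sham vehicle 8 passed, beside 2.53% of all genes, and they were Myom2 upward and Actc1, Cryab, Pdlim5, Fhl2, Tnnc1, Smyd1 and Mybpc3 downward, from -0.70 (Actc1) to -0.37. In NECA-treated MI against MI none passed (edgeR), and 4 of the 31 had an unadjusted p under 0.05, beside 503 of all 9560 genes. These fits rest on 2 sham vehicle mice and 2 MI mice that were kept after their levels were known. The 2 mice left out are those with the lowest sarcomere levels of their groups.

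The myosin heavy chains show how far MI mouse 3 stood apart. Myh7, chosen after its values were seen, made up 15.9% of the counts of Myh6 and Myh7 in MI mouse 3 and 16.6% in its deeper library. In the other 9 mice it made up 0.355% to 1.38%. Its scaled CPM were 144, 185 and 93.3 in sham vehicle mice, 284, 276 and 2652 in MI mice and 323, 371, 400.4 and 131 in NECA-treated mice. The MI mice lay above the sham vehicle mice, by a log2 fold change of 2.93 (95% confidence interval 0.58 to 5.28, edgeR adjusted p = 0.354) with MI mouse 3 and by 0.996 without it.

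Skeletal muscle transcripts were present in NECA-treated mouse 4 and at lower levels in MI mouse 2. Of 12 skeletal muscle markers, 11 were highest in NECA-treated mouse 4, and Myh4 was at 97.9 CPM there, 4.12 CPM in MI mouse 2 and 0 in the other 8 libraries. Summed, the list stood at 1664 to 2182 CPM in sham vehicle, 1400 to 2005 CPM in MI and 1848 to 2638 CPM in NECA-treated mice, mostly from Ckm, the muscle creatine kinase that heart also expresses. Leaving out both mice gave no called sarcomere gene in any comparison and medians of -0.28, 0.14 and -0.14.

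The repeated libraries compare sarcomere values within a mouse, between libraries that differ in depth and in annotation. For MI mouse 3, the deeper library gave CPM close to the shallow one, with a median absolute log2 ratio of 0.0674 over the 31 genes and no gene beyond 1.5-fold. For MI mouse 2 that median was 0.341, and 4 genes were beyond 1.5-fold. Over 1902 other genes with at least 50 CPM in both shallow libraries, the median was 0.127 in MI mouse 3 and 0.355 in MI mouse 2. The ratio of MI mouse 2 moved with transcript length (Pearson r = -0.78, Spearman rho = -0.89 over 31 genes, given as a description, since genes share the library and are not independent). Flnc was at 0.47 times, Myh7b at 0.504 times and Myh6 at 0.65 times the CPM of the shallow library, whereas the short transcripts of Tnni3 and Myl3 were at 1.49 and 1.47 times. Among the same 1902 other genes r was -0.64 for MI mouse 2, and for MI mouse 3 it was 0.08 over the 31 genes. Log2 fold changes of the 31 genes also moved with length in NECA-treated MI against MI (r = 0.56, against 0.34 over the 1902 other genes), less in MI against sham vehicle (r = -0.33, against -0.11) and little in NECA-treated MI against sham vehicle (r = 0.07, against 0.11). Whether length has a part in the values of Flnc, Cmya5 and Myh6 was not tested.

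**Figure D5:**
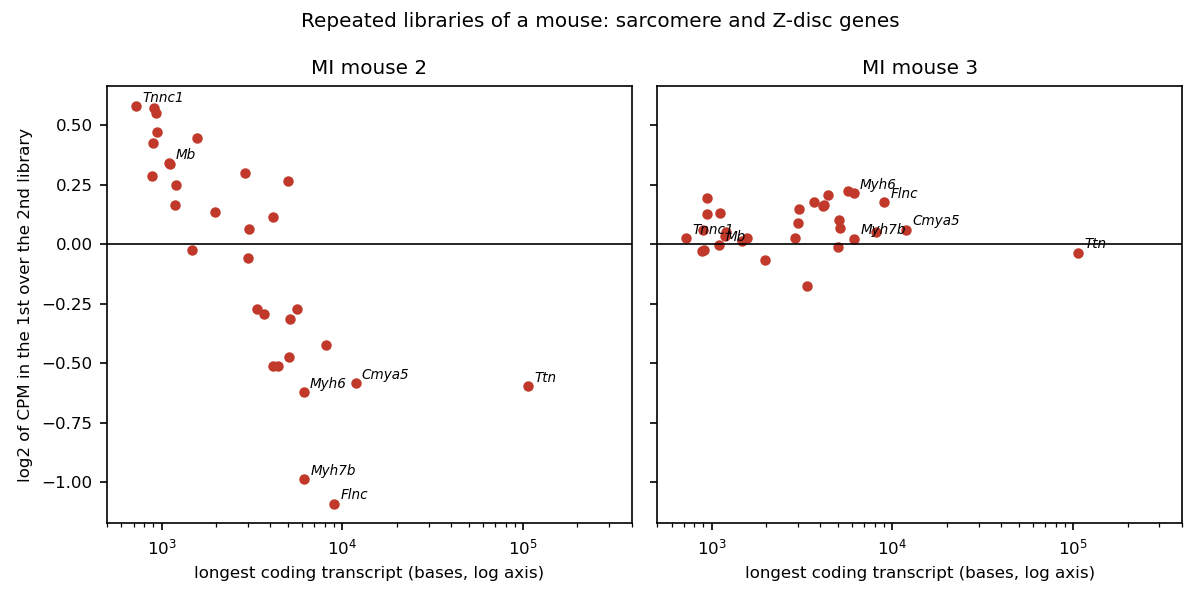
Log2 ratio of CPM in the deep 1st over the shallow 2nd library of MI mouse 2 (left) and MI mouse 3 (right) for the 31 genes, against the length of the longest coding transcript in bases (log axis). In MI mouse 2 long transcripts such as Flnc and Myh7b lie at -1.09 and -0.99 and short ones such as Tnnc1 at 0.58, and in MI mouse 3 all lie within 0.222 of 0.

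Other genes of the pathway were read from lists of 40 further sarcomere and Z-disc genes, 35 of them tested, and of 19 quality control genes (chaperones, ubiquitin ligases and intermediate filament linkers), 18 of them tested. None passed in any comparison with edgeR, DESeq2 or limma on all 10 mice. Without sham vehicle mouse 3 and MI mouse 3, Speg and Xirp1 passed in MI against sham vehicle (log2 fold changes -0.55 and -0.55, edgeR adjusted p = 0.0345 and 0.0457) and Sorbs2 and Xirp1 in NECA-treated MI against sham vehicle (-0.39 and -0.42, edgeR adjusted p = 0.0478 and 0.038). The unadjusted p was under 0.05 for 9 of the 35 and 0 of the 18 in MI against sham vehicle, beside 12.0% of all genes. In NECA-treated MI against MI it was so for 1 of the 35 and 1 of the 18, beside 6.07%. In NECA-treated MI against sham vehicle the counts were 4 of the 35 and 1 of the 18, beside 6.03%. In MI against sham vehicle 12 of the 35 were higher and 23 lower (median -0.16), and 5 of the 18 higher and 13 lower (median -0.12). The median over all genes was -0.01. The smallest p among them belonged to Tpm4, a tropomyosin of non-muscle cells and developing muscle, at 76.5, 71.2 and 83.0 scaled CPM in sham vehicle mice, 109, 116 and 177 in MI mice and 95.3, 107, 91.0 and 85.7 in NECA-treated mice. Its groups did not overlap in any of the 3 comparisons, and its log2 fold change was 0.80 ± 0.18 in MI (SE, edgeR adjusted p = 0.121) and -0.50 ± 0.17 with NECA against MI (adjusted p = 0.793). Xirp1, an actin-binding protein of the intercalated disc, came second in MI with -0.64 ± 0.19 (adjusted p = 0.247). Ankrd23, a titin-associated ankyrin repeat protein, and Filip1 came first and second in NECA-treated MI against sham vehicle, with -0.60 ± 0.18 and -0.51 ± 0.20 (adjusted p = 0.652 and 0.821). Among quality control genes Trim55 had -0.39 ± 0.23 in MI (adjusted p = 0.507) and Hsp90aa1 -0.58 ± 0.21 in NECA-treated MI against sham vehicle (adjusted p = 0.805), and Klhl38 had 0.65 ± 0.29 in NECA-treated MI against MI (adjusted p = 0.797).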

How the data were processed

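Per the labels' protocols, total RNA was made into 3′ libraries with a modified CEL-Seq2 protocol. FastQC 0.11.9, the aligner STAR and the quantifier RSEM were run with the build GRCm39, per the submitters' processing notes. The sources used here do not give the annotation release, strand setting or use of molecular identifiers. The authors deposited RSEM expected counts, as whole numbers, and log2(TPM + 1), which divides by effective length although 3′ reads do not grow with length. Of 57054 rows, 306 had values in the 2 libraries labelled 1st alone and 101 lacked them there, so 56647 rows were used. GENCODE names were joined on the Ensembl identifier, with no coordinates taken.

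The titles number separate mice, and the mouse was the replicate. For MI mice 2 and 3 the 2nd libraries were used, because the 1st are deeper, differ in annotation and exist for MI mice alone. The 1st libraries, alone or summed with the 2nd, were alternatives. Counts were tested with edgeR 4.0.16 (R 4.3.3): filterByExpr, TMM, robust quasi-likelihood, 1 fit over 10 mice and 3 groups, two-sided, Benjamini-Hochberg over 9505 genes, threshold 0.05. The procedure was tested on simulated data. The ± after a log2 fold change is its standard error and after a level its SD. DESeq2 1.42.0, limma 3.58.1 on log2(TPM + 1), other scalings, no filter, 2 groups alone, a replicate block and leaving out mice were alternatives. The members and lists were chosen with earlier results of these data known. Values in every mouse are given for the 3 genes of smallest p in each comparison and the gene of highest mean CPM in each role group. From the other sarcomere and quality control lists the 2 genes of smallest p per comparison were eligible, and Myh7, Myh4, Myl4, Myl7, Fhl2, Actn2, Speg and Sorbs2 and the A or T restriction of the MEF2 motif were chosen after their values were seen. Reads of near-identical genes are divided by RSEM, so Myh6 with Myh7 and Actc1 with Acta1 are uncertain. Deviations of same-numbered mice of different groups had correlations between -0.226 and 0.191, and those of other pairs between -0.27 and 0.272. The numbers thus gave no sign of a pairing, and so few mice cannot exclude one.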

Additional observations from a re-analysis of the deposited data

Results flagged for a closer look

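Of 84 values tested in the 4 NECA-treated mice, 4 had a single mouse far from the other 3 (Dixon's test at the 95% level, which flags about 1 in 20 groups by chance). None of the 31 sarcomere and Z-disc genes was among them. Ankrd23, a titin-associated gene outside the 31, stood at 141.9 scaled CPM in NECA-treated mouse 4 and at 201.4 to 213.0 in the other 3. The same mouse held 2638 CPM of skeletal muscle markers against 1848 to 1896 CPM. NECA-treated mouse 2 held 866.1 CPM of smooth muscle and pericyte markers against 641.7 to 677.1 CPM, and 15.67 scaled CPM of the macrophage gene Cd68 against 12.81 to 13.0. The test was run in the group of 4 alone, so MI mouse 3 and sham vehicle mouse 3 were not covered by it.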

How the results depend on the processing

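In MI against sham vehicle the sign differed from the reported one in 0 to 9 of the 31 genes over the alternatives, with 9 on log2(TPM + 1) and 9 without sham vehicle mouse 3 and MI mouse 3. In NECA-treated MI against MI and in NECA-treated MI against sham vehicle it differed in 0 to 6 genes each. Of the 31 genes, 1 was called in MI against sham vehicle with library totals without TMM, with DESeq2 and without sham vehicle mouse 3. Without sham vehicle mouse 3 and MI mouse 3, 6 were called in that comparison. For NECA-treated MI against sham vehicle, 1 was called with totals without TMM and 8 without those 2 mice. Leaving out single mice gave 0 to 1, 0 and 0 called sarcomere genes in the 3 comparisons. The median of the 31 genes in MI against sham vehicle was 0.0139 on log2(TPM + 1), against 0.0977 over all genes tested. All genes called in MI against sham vehicle (7) numbered 15 with summed and 12 with 1st libraries, 17 with DESeq2, 191 without a filter, 0 with limma or 2 groups alone, 69 without both mice, and 0 to 50 without single mice (4 without sham vehicle mouse 1, 0 without mouse 2). In NECA-treated MI against MI (0) there were 1 with summed or 1st libraries, 8 without a filter and 0 to 2 without single mice. In NECA-treated MI against sham vehicle (1) there were 0 with summed or 1st libraries or limma, 4 with totals without TMM, 3 without mitochondrially encoded genes in the totals, 6 with DESeq2, 43 without a filter, 7 with 2 groups alone, 4 with the replicate block, 242 without both mice and 0 to 7 without single mice. The cause of these shifts was not tested, other than that fits without mice hold fewer mice. The replicate block, run although the numbers gave no sign of a pairing, changed no call among the 31 genes. No fold change of the 31 genes reversed while called. None of the 31 was called in the main fit. Of 1953 values, 1911 stayed uncalled and differed from the main value by less than the gene's pooled SD within groups. A value that close can still have the other sign. With 3 or 4 mice a group and about 1 M counts a library, 95% confidence intervals lay within 1.5-fold for 14, 22 and 22 of the 31 genes in the 3 comparisons, and for the others a difference of that size was not excluded.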
